A study of Saccharomyces cerevisiae with 12 samples.

Results

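The 3 anaerobic cultures of Saccharomyces cerevisiae strain IMZ383 were set against the 3 aerobic cultures of strain IMZ305, 6 of the 12 arrays of the series. These 6 arrays were chosen by their titles, and all 9275 yeast probe sets of the array were compared. Both strains make cytosolic acetyl-CoA by a bacterial route in place of the native one, and they differ from each other in that route, in their deletions and in oxygen. The comparison asks which parts of the anaerobic programme of yeast remained visible across that pair of strains. The same question without a change of strain was answered by the other 6 arrays, 3 anaerobic and 3 aerobic cultures of the prototrophic laboratory strain CEN.PK113-7D (MATa MAL2-8C SUC2), which carries the native route.

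IMZ383 was built in CEN.PK102-12A, a MATa strain with the alleles MAL2-8C and SUC2 whose auxotrophies come from ura3-52, his3-Δ1 and leu2-3,112. Its acetyl-CoA synthetase genes were replaced by marker cassettes (acs1::loxP-LEU2-loxP and acs2::loxP-HIS3-loxP), and plasmid pUDE204 (URA3) carried pflB and pflA of Escherichia coli, pyruvate formate-lyase and its activating enzyme, which form acetyl-CoA and formate from pyruvate. IMZ305 came from the same parent and lacks both acetyl-CoA synthetase genes as well (acs1::AmdS and acs2::loxP-natNT2-loxP). It lacks its acetaldehyde dehydrogenase genes too (ald6::loxP-hphNT1-loxP, ald4::loxP-HIS3-loxP and ald5::loxP-KanMX4-loxP, with the neighbours ALD2 and ALD3 removed together as ald2-ald3::loxP-LEU2-loxP), and its plasmid pUDE151 (URA3) carries eutE of E. coli, an acetylating acetaldehyde dehydrogenase. All cultures were glucose-limited chemostats at a dilution rate of 0.1 per h, pH 5.0 and 30 °C. The anaerobic ones were fed 20.0 g/L glucose with 10 mg/L ergosterol and 420 mg/L Tween 80 under nitrogen, and the aerobic ones 7.5 g/L glucose with air and no sterol or Tween 80. The antifoam differed too, antifoam C without oxygen and Pluronic with air. Oxygen, feed, sterol and fatty acid supply, strain and plasmid therefore changed together between IMZ383 and IMZ305 and cannot be told apart. In CEN.PK113-7D the strain stayed the same and the rest changed together. Each engineered group is 1 strain with 1 plasmid. Replicates are separate chemostats by their titles.

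Yeast senses oxygen mainly through heme and sterols, which it can make only with oxygen. With heme present, Hap1 and the Hap complex drive respiratory genes, and the repressors Rox1 and Mot3 keep hypoxic genes silent. When heme and sterols run out, that repression is lifted and Upc2 switches on sterol import and the wall mannoproteins of the DAN, TIR and PAU families. A glucose-limited aerobic culture respires and also keeps genes for ethanol, acetate and fatty acid use derepressed under Adr1 and Cat8, whereas an anaerobic culture must ferment. Cytosolic acetyl-CoA, the precursor of sterols and fatty acids and the donor for histone acetylation, normally comes from acetate through Acs1 and Acs2.

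The deleted loci and plasmid markers were read first, as a check of the labels. ALD6, which encodes the main cytosolic acetaldehyde dehydrogenase, gave 344, 329 and 231 in IMZ383, against 0.1, 0.1 and 0.1 in IMZ305, and ALD4, its main mitochondrial relative, gave 570.2, 555 and 486 in IMZ383, against 1.4, 0.9 and 1.7 in IMZ305. ALD5, ALD3 and ALD2 gave at most 1.6 on every IMZ305 array. All 5 were above background on every IMZ383 array and at background on every IMZ305 array, as the genotypes require, with ALD6 at least 65.2-fold and ALD4 at least 118-fold higher. These genes are markers of genotype here and not of oxygen. ACS1 lay at or under 0.5 on all 6 arrays, and ACS2 gave 3.3, 6.1 and 5.2 in IMZ383, against 2.0, 2.1 and 1.4 in IMZ305, above that array's highest non-target control only in IMZ383 replicate 2. LEU2, a deletion marker in both strains, gave 1606, 1807 and 1726 in IMZ383, against 361, 335 and 277 in IMZ305, and URA3, the plasmid marker, 735, 627 and 616 in IMZ383, against 2725, 2667 and 2843 in IMZ305. HIS3 gave 704, 667 and 589 in IMZ383, against 536, 516 and 466 in IMZ305, and its change did not pass the test (adjusted p = 0.109). STE2, the receptor found in MATa cells, gave 371, 466 and 378 in IMZ383, against 166, 191 and 187 in IMZ305, while STE3, the receptor of MATα cells, stayed between 18.8 and 25.2 on all 6 arrays. The other MATa markers, MFA1, MFA2, STE6, BAR1 and AGA2, gave at least 84.4 on all 6 arrays. Those of MATα cells were not all low: SAG1 gave 52.2 to 66.5, MF(ALPHA)1 1.4 to 21.8 and MF(ALPHA)2 2.2 to 6.9. MF(ALPHA)1 gave 43.5 to 85.7 in CEN.PK113-7D.

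Signal was scaled to a common level on all arrays before deposition, so a shift of every transcript in 1 direction would not be seen. In these bulk samples, fewer cells making a transcript and less of it in each cell cannot be told apart. Arrays of 1 group correlated at 0.9729 to 0.9791 in IMZ383 and at 0.9792 to 0.9868 in IMZ305 over all probe sets (Pearson's r of log2 signal). The BioB hybridisation control gave 42.9 to 86.2 on the IMZ383 arrays and 7.9 to 11.9 on the IMZ305 arrays, so its level and the group cannot be told apart. In CEN.PK113-7D this control gave 67.2, 62.1 and 72.0 without oxygen, against 12.0, 8.6 and 59.9 with air. The 3' probe set of ACT1 divided by its 5' probe set gave 1.37 to 1.468 in IMZ383 and 1.61 to 1.647 in IMZ305. The 19 non-target controls, bacterial and mouse probe sets, had a median signal of 0.5 and a highest value of 7.5, and a signal under an array's own highest non-target control is called background below.

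Between IMZ383 without oxygen and IMZ305 with air, 938 of 9275 probe sets rose (10.1%) and 1486 fell (16.0%), 26.1% in all, at an adjusted p under 0.05 (limma, Benjamini-Hochberg over all probe sets). Of these, 586 rose and 720 fell by at least 2-fold. With 1 probe set per gene, 505 of 5656 genes rose (8.93%) and 1197 fell (21.2%), with a median log2 change of -0.18 over all genes. The 3 arrays of 1 group did not overlap with those of the other for 4076 probe sets (43.9%). In CEN.PK113-7D, 34.2% of probe sets were called, 1018 higher (11.0%) and 2157 lower (23.3%), and of the genes 570 rose (10.1%) and 1837 fell (32.5%). How the calls split by direction depended on the scaling: rises made up 38.7% of the calls between IMZ383 and IMZ305 as deposited, 50.5% after quantile normalization and 60.4% after median centring. Median centring moved the median log2 change of all probe sets to 0.125, against -0.0935 as deposited, and changes of single genes are given as deposited.

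The oxygen response of CEN.PK113-7D recurred in part. Of its 1018 higher probe sets, 506 also rose in IMZ383 over IMZ305 (49.7%), 483 were not called (47.4%) and 29 fell (2.8%). Of its 2157 lower ones, 992 fell again (46.0%), 1111 were not called (51.5%) and 54 rose (2.5%). The 2 comparisons share no array, but they share 1 estimate of the spread, and the BioB control was higher without oxygen in both. Counted from the other side, 53.9% of the rises and 66.8% of the falls between IMZ383 and IMZ305 were also called in the same direction in CEN.PK113-7D. Where both were called, the median log2 change was 1.34 in the engineered pair and 1.36 in CEN.PK113-7D for rises, and -1.02 and -1.23 for falls. Not being called is not the same as a different response, and that difference was tested directly: it was called for 823 probe sets (8.87%), and over genes for 458 in the higher direction (8.10%) and 193 in the lower (3.41%), where higher means a more positive change in the engineered pair. Over probe sets 549 were higher and 274 lower, so 66.7% of called differences were higher as deposited, 56.5% after quantile normalization and 48.9% after median centring. Among the 483 and 1111 reference calls not called in the engineered pair, the difference was called for 111 and 246.

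**Figure D1:**
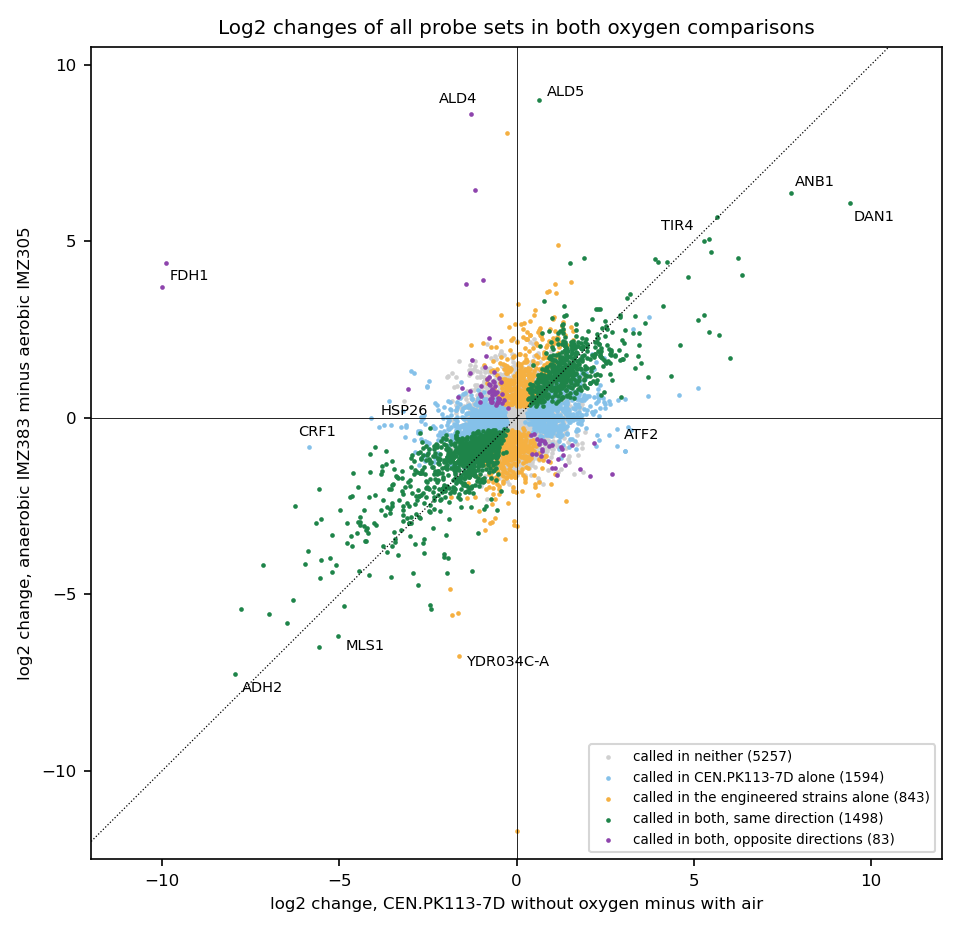
Log2 change of each of 9275 probe sets between IMZ383 without oxygen and IMZ305 with air (vertical axis) against the log2 change between CEN.PK113-7D without and with oxygen (horizontal axis); colours give the calls at an adjusted p under 0.05. 1498 probe sets were called in the same direction in both, 83 in opposite directions, 843 in the engineered pair alone and 1594 in CEN.PK113-7D alone.

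The wall mannoproteins that replace the aerobic ones without oxygen were among the strongest rises. TIR1, a serine- and alanine-rich mannoprotein, gave 5029.7, 6955 and 7594 in IMZ383, against 334, 268 and 237 in IMZ305 (log2 change 4.54 ± 0.18, adjusted p = 3.43e-07), and its relative TIR4 gave 2581, 2726 and 3148 in IMZ383, against 103, 89.5 and 70.7 in IMZ305 (log2 change 5.02 ± 0.25, adjusted p = 1.73e-06). DAN1, the mannoprotein after which the family is named and which takes part in anaerobic sterol uptake, gave 2117, 1176 and 2723 in IMZ383, against 32.7, 21.6 and 31.4 in IMZ305 (log2 change 6.07 ± 0.52, adjusted p = 4.81e-05). The lowest IMZ383 culture lay many-fold above the highest IMZ305 culture for all 3 genes. Of the 7 measured DAN and TIR genes, 6 rose and none fell, with a median log2 change of 2.77 beside -0.18 for all genes, and the same number rose in CEN.PK113-7D, with a median of 5.12. The sizes of 3 of these rises differed from those in CEN.PK113-7D: the difference was -3.32 for DAN1 (adjusted p = 0.0252), -1.70 for TIR1 (0.00399) and -2.34 for TIR3 (0.00399). The difference for DAN1 was no longer called without IMZ305 replicate 1, IMZ383 replicate 2 or the third anaerobic CEN.PK113-7D array, with an adjusted p of up to 0.0651. In CEN.PK113-7D itself DAN1 gave 3692, 3106 and 3365 without oxygen, against 6.7, 2.0 and 9.4 with air, a lower level with air and a higher one without oxygen than in the engineered strains. TIR2 gave 366, 376 and 454 in IMZ383, against 108, 84.5 and 83.4 in IMZ305 (log2 change 2.12 ± 0.20, adjusted p = 7.77e-05). PAU23, counted in this list and again with the PAU genes below, rose by 0.58. Its call was lost without any IMZ305 array or IMZ383 replicate 1 or 3 (adjusted p up to 0.0706). DAN4, a further member, gave 239.6, 113 and 279 in IMZ383, against 299, 289.8 and 257 in IMZ305 and did not pass (log2 change -0.52 ± 0.47, adjusted p = 0.476). CWP2, a major wall protein of aerobic cells, gave 1972, 2079 and 2244 in IMZ383, against 3429.8, 3393 and 3456 in IMZ305 (log2 change -0.71 ± 0.20, adjusted p = 0.0284), a call that leaving out any IMZ305 array or IMZ383 replicate 1 or 2 ended (adjusted p up to 0.145).

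The seripauperins, the PAU genes, did not move as a block. They are near-identical, so signal of 1 copy cannot be separated from that of others. The annotation assigns a probe set to a single PAU gene for 10 of 24, and the names below follow it. In CEN.PK113-7D all 10 rose without oxygen. In the engineered pair 5 rose (PAU4, PAU10, PAU13, PAU17 and PAU23) and 3 fell (PAU15, PAU16 and PAU19), beside 8.93% and 21.2% of all genes. Only 3 rose without any 1 of the IMZ305 arrays or without IMZ383 replicate 3. PAU4 gave 982, 1019 and 1038 in IMZ383, against 342, 351 and 343 in IMZ305 (log2 change 1.55 ± 0.10, adjusted p = 5.93e-06), and PAU10 gave 566, 556 and 743 in IMZ383, against 207, 189 and 108 in IMZ305 (log2 change 1.93 ± 0.35, adjusted p = 0.0033). PAU16 gave 121, 85 and 166 in IMZ383, against 322, 291 and 303 in IMZ305 (log2 change -1.35 ± 0.25, adjusted p = 0.0037). In CEN.PK113-7D it gave 189, 149 and 144 without oxygen, against 57.8, 50.8 and 81 with air. IMZ305 thus had the highest signal of the 4 groups, and the difference of the changes was called (-2.72, adjusted p = 0.00216). PAU15 and PAU19 had the same order of group means, with log2 changes of -1.06 and -1.17 in the engineered pair and 1.31 and 1.17 in CEN.PK113-7D.

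**Figure D2:**
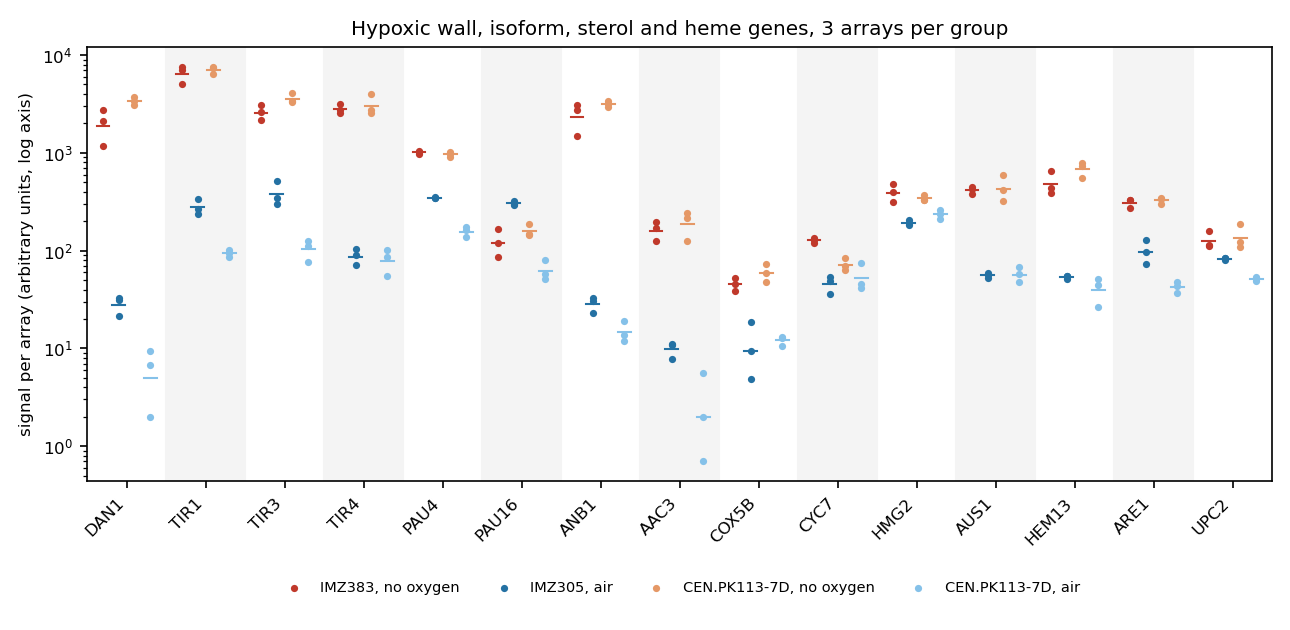
Signal of 15 hypoxic genes on each array (log axis, arbitrary units of scaled intensity), with IMZ383 without oxygen, IMZ305 with air and CEN.PK113-7D without and with oxygen; points are cultures and the short line is the geometric mean of 3. DAN1, TIR1, TIR4, ANB1 and AUS1 are separated without overlap in both strain settings, whereas PAU16 is higher in IMZ305 than in IMZ383.

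Among proteins with a hypoxic and an aerobic isoform, all 5 hypoxic isoforms rose. ANB1, the hypoxic form of translation factor eIF5A, gave 2768, 1491 and 3058 in IMZ383, against 30.2, 32.8 and 22.8 in IMZ305 (log2 change 6.36 ± 0.28, adjusted p = 6.8e-07). AAC3, the anaerobic ADP/ATP carrier, gave 195, 169 and 124 in IMZ383, against 11.2, 7.7 and 10.8 in IMZ305 (log2 change 4.04 ± 0.52, adjusted p = 0.000515). COX5B, the hypoxic subunit 5 of cytochrome c oxidase, gave 38.6, 52.8 and 45.3 in IMZ383, against 4.9, 9.4 and 18.4 in IMZ305 (log2 change 2.26 ± 0.40, adjusted p = 0.00295), with 1 IMZ305 array at background. CYC7, cytochrome c isoform 2, and HMG2, the HMG-CoA reductase made without oxygen, rose too (log2 change 1.49 ± 0.23, adjusted p = 0.00146 and log2 change 1.01 ± 0.15, adjusted p = 0.00115). Every IMZ383 culture was above every IMZ305 culture for these 5 genes. The change of CYC7 was not called in CEN.PK113-7D (0.45), but the difference did not pass (adjusted p = 0.0835). Of the 5 aerobic partners 4 fell. CYC1, cytochrome c isoform 1, gave 138, 84.8 and 156 in IMZ383, against 1729.5, 1783 and 1659 in IMZ305 (log2 change -3.82 ± 0.22, adjusted p = 3.8e-06), COX5A gave 283, 339.7 and 361 in IMZ383, against 1076, 1078 and 1134 in IMZ305 (log2 change -1.75 ± 0.11, adjusted p = 7.28e-06), and HMG1 gave 923, 799 and 889 in IMZ383, against 2658, 2776 and 2378 in IMZ305 (log2 change -1.58 ± 0.12, adjusted p = 1.77e-05). PET9, the main ADP/ATP carrier, fell as well (log2 change -0.92 ± 0.11, adjusted p = 0.000394), whereas HYP2, the aerobic eIF5A, gave 3631, 4718 and 3632 in IMZ383, against 5863, 5274 and 4857 in IMZ305 and did not pass (adjusted p = 0.26). The fall of HMG1 was smaller than in CEN.PK113-7D (difference 1.00, adjusted p = 0.00702). That of CYC1 was larger (difference -1.2, adjusted p = 0.0474), but this difference was lost without any 1 of 10 arrays (adjusted p up to 0.106).

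Of 12 regulators of this switch, 2 rose and 3 fell, beside 8.93% and 21.2% of all genes. MGA2, a membrane-bound activator of the fatty acid desaturase gene, gave 62.4, 67.3 and 59.7 in IMZ383, against 14.1, 18.8 and 9.0 in IMZ305 (log2 change 2.24 ± 0.30, adjusted p = 0.000698), with no overlap, against a log2 change of 0.30 that was not called in CEN.PK113-7D (difference 1.94, adjusted p = 0.0248). That difference was lost without IMZ305 replicate 1, IMZ383 replicate 1 or 2, the first aerobic or the third anaerobic CEN.PK113-7D array (adjusted p up to 0.0556). MOT3 gave 5.4, 3.5 and 6.6 in IMZ383, against 13.9, 15.2 and 13 in IMZ305 (log2 change -1.49 ± 0.30, adjusted p = 0.00607), with 1 IMZ383 array at background. The other 3 calls each ended on leaving out 1 array: UPC2 rose by 0.62 (adjusted p up to 0.155 over 10 arrays left out in turn), HAP4, the regulatory subunit of the Hap complex, fell (-0.85, up to 0.0716 without IMZ305 replicate 2 or 3 or IMZ383 replicate 2), and SPT23, the partner of MGA2, fell (-1.16, up to 0.0927 without any IMZ305 array or IMZ383 replicate 2 or 3). The count of rises fell to 1 without any 1 of those 10 arrays and the count of falls to 1 without IMZ305 replicate 2 or 3 or IMZ383 replicate 2. After median centring the majority turned, with 3 higher and 1 lower. ROX1 gave 31.3, 17.2 and 25.6 in IMZ383, against 32.2, 44.1 and 38.8 in IMZ305 and was not called (adjusted p = 0.08).

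The sterol transporter gene AUS1 rose, whereas most genes of the mevalonate pathway fell. AUS1, the plasma membrane transporter that takes up sterol, gave 451, 429.7 and 379.5 in IMZ383, against 51.9, 56.2 and 59.2 in IMZ305 (log2 change 2.91 ± 0.21, adjusted p = 1.67e-05), and its paralogue PDR11 gave 138, 126 and 82.7 in IMZ383, against 67.5, 58.5 and 54.4 in IMZ305 (log2 change 0.92 ± 0.28, adjusted p = 0.0361), a call lost without any 1 of the IMZ305 arrays or IMZ383 replicate 1 or 2 (adjusted p up to 0.116). ARE1, the acyltransferase that esterifies sterol in hypoxic cells, gave 328, 327 and 270.2 in IMZ383, against 129, 97.8 and 72.5 in IMZ305 (log2 change 1.66 ± 0.20, adjusted p = 0.000322). The 3 IMZ383 cultures were the highest for all 3 genes. The change of AUS1 was nearly the same in CEN.PK113-7D (2.92), with a difference of -0.01 ± 0.30 (SE). Of 11 genes of sterol uptake and esterification, whose median was 0.02, 5 rose and 3 fell, beside 8.93% and 21.2% of all genes. The rises include DAN1, counted above with the wall mannoproteins. The falls were ARE2, SUT2 and SAY1, of which 1 was left without IMZ305 replicate 2 or 3 or IMZ383 replicate 1 or 3. ATF2, which acetylates sterols and alcohols, gave 291, 352 and 259 in IMZ383, against 369, 345 and 402 in IMZ305 with no call. In CEN.PK113-7D it gave 320.1, 332 and 288 without oxygen, against 49.7, 38.1 and 44.4 with air, a rise of 2.84, and the difference was -3.15 (adjusted p = 3.36e-05).

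In the mevalonate pathway 7 of 10 genes fell and HMG2 alone rose, with a median of -0.84 beside -0.6 in CEN.PK113-7D. Among all genes 8.93% rose and 21.2% fell in the engineered pair, and 10.1% and 32.5% in CEN.PK113-7D. MVD1, mevalonate diphosphate decarboxylase, gave 581, 581 and 621 in IMZ383, against 1395, 1407 and 1421 in IMZ305 (log2 change -1.25 ± 0.10, adjusted p = 3.25e-05), and ERG9, squalene synthase, gave 433, 299 and 372 in IMZ383, against 838, 811 and 841 in IMZ305 (log2 change -1.19 ± 0.14, adjusted p = 0.000293). The groups did not overlap for either gene, and both fell more than in CEN.PK113-7D (differences -0.69 and -1.04, adjusted p = 0.017 and 0.0126). IDI1, isopentenyl diphosphate isomerase, fell (log2 change -0.85 ± 0.14, adjusted p = 0.00191), by less than in CEN.PK113-7D (difference 0.81, adjusted p = 0.0354). That difference was lost without any 1 of 8 arrays (adjusted p up to 0.0904). ERG13 and ERG8 fell too (-0.83 and -1.14). The fall of ERG10 (-0.80) was lost without any of 9 arrays (adjusted p up to 0.16). Between squalene and ergosterol, where molecular oxygen is consumed, 7 of 15 genes fell and none rose, whereas 6 rose and 2 fell in CEN.PK113-7D. ERG4, the last reductase of the pathway, gave 319, 612 and 704 in IMZ383, against 1169, 1146 and 1305 in IMZ305 (log2 change -1.22 ± 0.28, adjusted p = 0.0103), but rose in CEN.PK113-7D (683, 595 and 643 without oxygen, against 304, 455 and 303 with air, 0.88), and the difference was -2.10 (adjusted p = 0.0113). CYB5, cytochrome b5, gave 315, 411 and 428 in IMZ383, against 866, 934 and 1038 in IMZ305 (log2 change -1.31 ± 0.12, adjusted p = 8.44e-05). NCP1, the reductase that passes electrons to the oxygenases, was not called (768, 700.2 and 616 in IMZ383, against 949, 842 and 756 in IMZ305), and it rose in CEN.PK113-7D (1.26, difference -1.55, 0.00112). The number that fell was 5 to 9 when single arrays were left out and 11 after quantile normalization.

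Heme genes rose in 5 of 9 cases, 1 of them strongly, beside rises of 8.93% of all genes. HEM13, the oxygen-requiring coproporphyrinogen oxidase, gave 438, 658 and 393 in IMZ383, against 54.9, 51.1 and 54.9 in IMZ305 (log2 change 3.17 ± 0.27, adjusted p = 4.58e-05), and HMX1, heme oxygenase, which breaks heme down, gave 31.6, 35.2 and 46.8 in IMZ383, against 329, 309 and 294 in IMZ305 (log2 change -3.06 ± 0.16, adjusted p = 2.09e-06). Neither gene's groups overlapped. HEM3 and HEM14 rose too (log2 change 0.93 ± 0.20, adjusted p = 0.00937 and log2 change 0.63 ± 0.14, adjusted p = 0.0097). The calls of HEM2 (0.69) and HEM15 (0.54) ended on leaving out any 1 of 6 and 10 arrays (adjusted p up to 0.117 and 0.147), so that 3 rose without IMZ305 replicate 2 or 3, any IMZ383 array or the third anaerobic CEN.PK113-7D array.

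In fatty acid metabolism 4 of 13 genes rose and 2 fell, beside 8.93% and 21.2% of all genes. Only 1 fell without IMZ305 replicate 1 or 2 or IMZ383 replicate 1 or 2. FAA4 and FAA1 encode long-chain acyl-CoA synthetases and moved in opposite directions: FAA4 gave 466, 465 and 444 in IMZ383, against 169.7, 178 and 181 in IMZ305 (log2 change 1.38 ± 0.10, adjusted p = 1.61e-05) and FAA1 gave 27.1, 18.4 and 21.4 in IMZ383, against 209, 218 and 245 in IMZ305 (log2 change -3.34 ± 0.38, adjusted p = 0.000236). FAA4 did not rise in CEN.PK113-7D (-0.16, difference 1.53, adjusted p = 0.000423), whereas FAA1 fell there as well (-2.99). ELO1, a fatty acid elongase, rose (649, 632 and 815 in IMZ383, against 324, 343 and 284 in IMZ305, log2 change 1.14 ± 0.14, adjusted p = 0.000377) and fell in CEN.PK113-7D (-0.51, difference 1.64, 0.00149). OLE1, the oxygen-dependent desaturase, rose by 0.53 and SCS7, the sphingolipid hydroxylase, by 1.26. Of the genes for NAD, whose synthesis from tryptophan needs oxygen, 5 of 12 rose, among them BNA2, the first dioxygenase of that route (371, 289 and 275 in IMZ383, against 165, 151 and 137 in IMZ305, log2 change 1.04 ± 0.16, adjusted p = 0.00125), and TNA1, the importer of nicotinic acid (981, 802 and 932 in IMZ383, against 495, 444 and 362 in IMZ305, log2 change 1.07 ± 0.19, adjusted p = 0.00285). FRD1, the soluble fumarate reductase that can take up electrons without oxygen, gave 772, 769 and 829.7 in IMZ383, against 388, 358 and 335 in IMZ305 (log2 change 1.13 ± 0.10, adjusted p = 5.47e-05), and the mitochondrial OSM1 was not called (-0.22, adjusted p = 0.708).

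Genes of the respiratory chain fell almost throughout. All 7 NADH and succinate dehydrogenase genes fell, 8 of 9 of the bc1 complex, 8 of 9 of cytochrome c oxidase and 14 of 15 of ATP synthase, with medians of -1.64, -1.41, -1.38 and -1.1. In CEN.PK113-7D 7, 7, 7 and 13 fell, with medians of -1.45, -1.38, -1.09 and -0.78. NDE1, the main external NADH dehydrogenase, gave 73.4, 56 and 95.4 in IMZ383, against 1642, 1786 and 1539.9 in IMZ305 (log2 change -4.50 ± 0.24, adjusted p = 2.09e-06). CYT1, cytochrome c1, gave 239.9, 227 and 224 in IMZ383, against 948, 972 and 833 in IMZ305 (log2 change -1.99 ± 0.09, adjusted p = 5.87e-07), COX12 gave 628, 623 and 848 in IMZ383, against 2337, 2406 and 2458 in IMZ305 (log2 change -1.79 ± 0.14, adjusted p = 3.23e-05), and INH1, the inhibitor protein of ATP synthase, gave 276, 357 and 268 in IMZ383, against 1276, 1279 and 1317 in IMZ305 (log2 change -2.12 ± 0.21, adjusted p = 0.00012). In every one of these 4 genes the lowest IMZ305 culture was above the highest IMZ383 culture. The exceptions were few: COX5B, the hypoxic subunit, rose, QCR8 was low in all 6 cultures (17.4, 17.1 and 9.8 in IMZ383, against 11.4, 24.8 and 28.5 in IMZ305), and ATP4 was not called (-0.22, adjusted p = 0.333). The only called difference to CEN.PK113-7D in these lists was a smaller fall of NDE2, the second external NADH dehydrogenase (-2.25 in the engineered pair and -4.18 in CEN.PK113-7D, adjusted p = 0.0113). The smaller falls of QCR7 (-0.85) and COX13 (-0.64) were not called without IMZ305 replicate 2 or 3 or IMZ383 replicate 1 (adjusted p up to 0.0708 and 0.115), and for COX13 also without IMZ305 replicate 1. Ubiquinone synthesis did not follow, with 2 of 10 genes higher and 2 lower, beside 8.93% and 21.2% of all genes. The counts were 1 higher without any 1 of the 6 arrays and 1 lower without IMZ305 replicate 3 or IMZ383 replicate 1 or 3.

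The TCA cycle fell to a lesser degree, in 9 of 12 genes with a median of -0.84. FUM1, fumarase, gave 574, 624 and 460.1 in IMZ383, against 1399, 1494 and 1281 in IMZ305 (log2 change -1.34 ± 0.26, adjusted p = 0.00505), and LSC1, a succinyl-CoA ligase subunit, gave 569, 525 and 593 in IMZ383, against 1384, 1334 and 1362 in IMZ305 (log2 change -1.27 ± 0.10, adjusted p = 1.93e-05). CIT3, a minor citrate synthase, fell the most (8.8, 9.7 and 13.4 in IMZ383, against 76.3, 111 and 91.7 in IMZ305, log2 change -3.13 ± 0.22, adjusted p = 1.5e-05). CIT1, MDH1 and LPD1 were not called. In CEN.PK113-7D 5 fell, and no difference between the comparisons was called in this list. Of 67 mitochondrial ribosomal protein genes 13 fell and none rose, a share of falls near the 21.2% of all genes, and only 6 fell without IMZ305 replicate 2, 5 without IMZ305 replicate 3 and 2 after median centring.

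**Figure D3:**
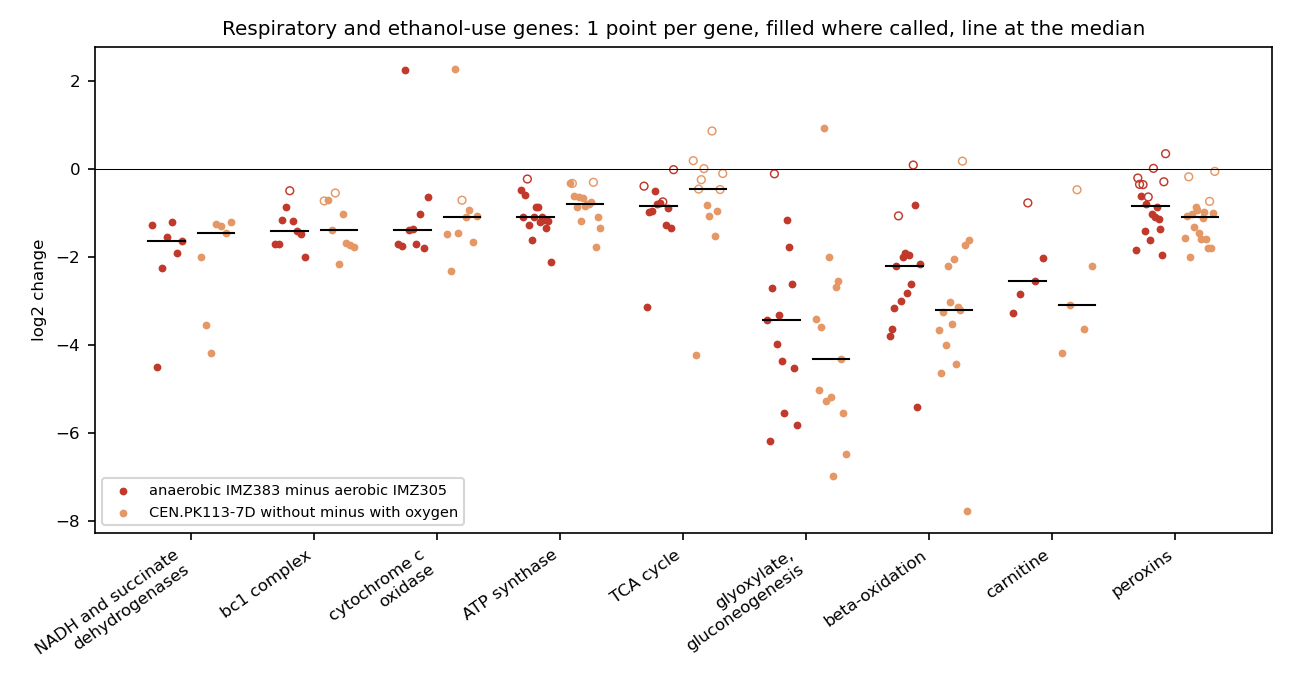
Log2 change of every measured gene of 9 lists of respiration and ethanol or fatty acid use, for IMZ383 without oxygen over IMZ305 with air (red) and CEN.PK113-7D without over with oxygen (orange); filled points were called and the line is the median of the list. The medians of the glyoxylate list are -3.44 in the engineered pair and -4.31 in CEN.PK113-7D.

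Genes for using ethanol and acetate included the largest falls of any named gene. ADH2 (YMR303C), the alcohol dehydrogenase that consumes ethanol, gave 22.7, 17.5 and 21.8 in IMZ383, against 3448, 3268 and 2804 in IMZ305 (log2 change -7.27 ± 0.13, adjusted p = 1.99e-09), and in CEN.PK113-7D 20.7, 22.2 and 19.3 without oxygen, against 5181, 4585 and 5719 with air. The anaerobic signals of both strains overlapped, and both lay far below those with air. In the glyoxylate cycle and gluconeogenesis 12 of 13 genes fell, beside 21.2% of all genes. MLS1, malate synthase, gave 5.9, 8.8 and 6.0 in IMZ383, against 540.5, 539.9 and 413 in IMZ305 (log2 change -6.19 ± 0.28, adjusted p = 7.72e-07), with 1 IMZ383 array at background, and ICL1, isocitrate lyase, gave 94, 99 and 95.6 in IMZ383, against 1038, 1079 and 1012 in IMZ305 (log2 change -3.44 ± 0.14, adjusted p = 4.96e-07). ADY2, an acetate transporter, gave 7.7, 2.3 and 5.1 in IMZ383, against 273, 283 and 211 in IMZ305 (log2 change -5.82 ± 0.47, adjusted p = 3.3e-05), with 2 IMZ383 arrays at background, and SFC1, the succinate-fumarate carrier, gave 5.7, 6.4 and 7.4 in IMZ383, against 295, 338 and 276 in IMZ305 (log2 change -5.54 ± 0.18, adjusted p = 1.06e-07). JEN1, the lactate and pyruvate permease, gave 41.5, 39.1 and 58.2 in IMZ383, against 1036, 1186 and 944 in IMZ305 (log2 change -4.53 ± 0.20, adjusted p = 6.8e-07). None of these groups overlapped. FBP1 and PCK1, the gluconeogenic enzymes, fell as well (-3.98 and -3.32), and so did the activator genes ADR1, CAT8 and SIP4 (-1.15, -1.78 and -2.60). CIT2, peroxisomal citrate synthase, was not called (1232, 1042 and 1428 in IMZ383, against 1285, 1309.5 and 1351 in IMZ305). In this list 6 differences were called, all of them smaller falls in the engineered pair: FBP1 (1.29), IDP2 (0.83), SFC1 (1.43), ADR1 (1.53), SIP4 (1.71) and MDH2, cytosolic malate dehydrogenase (0.88). The difference of MDH2 was lost without any 1 of 11 arrays (adjusted p up to 0.142).

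Fatty acid oxidation in the peroxisome fell with them, in 13 of 15 genes with a median of -2.2, beside 14 of 15 and -3.21 in CEN.PK113-7D. Falls made up 21.2% of all genes in the engineered pair and 32.5% in CEN.PK113-7D. CTA1, the peroxisomal catalase, gave 9.1, 9.7 and 8.6 in IMZ383, against 407, 415 and 352 in IMZ305 (log2 change -5.42 ± 0.21, adjusted p = 3.43e-07), FOX2, the multifunctional enzyme, gave 41.8, 30.8 and 44.7 in IMZ383, against 456, 530.5 and 457 in IMZ305 (log2 change -3.63 ± 0.19, adjusted p = 2.09e-06), and SPS19, dienoyl-CoA reductase, gave 42.6, 45.4 and 36.7 in IMZ383, against 333, 346 and 309 in IMZ305 (log2 change -2.99 ± 0.16, adjusted p = 2.65e-06). No array of 1 group reached the other. The fall of CTA1 was smaller than in CEN.PK113-7D (2.35, adjusted p = 0.00206), and 7 of 15 differences in this list were called, all smaller falls. CRC1, CAT2, YAT2 and AGP2 of the carnitine shuttle fell (4 of 5, -2.02 to -3.28), and 11 of 18 peroxins fell, led by PEX21, PEX2 and PEX11 (-1.95, -1.83 and -1.61). CYB2, the L-lactate dehydrogenase of the mitochondrial intermembrane space, gave 19.8, 25.3 and 24.4 in IMZ383, against 874, 873 and 752 in IMZ305 (log2 change -5.17 ± 0.18, adjusted p = 1.48e-07).

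Glycolytic genes rose in 8 of 13 cases and none fell, with a median of 0.67. In CEN.PK113-7D 8 rose as well, with a median of 0.47, and 6 genes rose in both. Of 9 genes of ethanol fermentation 4 rose and 2 fell (ADH2 and PDC6), and of 11 glycerol genes 3 rose and 2 fell (GUT2 and STL1). Among all genes 8.93% rose and 21.2% fell in the engineered pair, so the falls in both of these lists were near that share. PFK1, a phosphofructokinase subunit, gave 1391, 1380.3 and 1282 in IMZ383, against 749, 675 and 711 in IMZ305 (log2 change 0.93 ± 0.10, adjusted p = 0.000142), and CDC19, pyruvate kinase, gave 4207, 4808 and 5141 in IMZ383, against 2791, 2599 and 2338 in IMZ305 (log2 change 0.87 ± 0.12, adjusted p = 0.000801). ADH1, the main fermentative alcohol dehydrogenase, gave 4887, 5845 and 5854 in IMZ383, against 3569.9, 3174 and 2999 in IMZ305 (log2 change 0.77 ± 0.11, adjusted p = 0.000798), and ADH5 gave 545, 610.3 and 811 in IMZ383, against 166, 170.4 and 203 in IMZ305 (log2 change 1.85 ± 0.20, adjusted p = 0.000201). The IMZ383 cultures were the higher ones throughout these 4 genes. PDC1, pyruvate decarboxylase, gave 2399, 1746 and 2271 in IMZ383, against 1876, 1852 and 1918 in IMZ305 and was not called in the engineered pair (adjusted p = 0.592), while it rose in CEN.PK113-7D (0.70); the difference did not pass (-0.53, adjusted p = 0.283). GPP1, glycerol-3-phosphatase, gave 1366, 1282 and 1154 in IMZ383, against 363, 291 and 311 in IMZ305 (log2 change 1.98 ± 0.20, adjusted p = 0.000141), GUT2, the mitochondrial glycerol-3-phosphate dehydrogenase, gave 119.7, 135 and 61.6 in IMZ383, against 755, 708 and 537 in IMZ305 (log2 change -2.72 ± 0.27, adjusted p = 0.000116), and GPD1 and GPD2 were not called (0.36 and 0.32). DAK2, dihydroxyacetone kinase, gave 14.7, 14.2 and 13.3 in IMZ383, against 2.8, 3.5 and 3.9 in IMZ305 (log2 change 2.06 ± 0.49, adjusted p = 0.0131), with 2 IMZ305 arrays at background, and was not called in CEN.PK113-7D (-1.29, difference 3.35, 0.0173).

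Among hexose transporters, HXT5, made at slow growth, fell (111, 106 and 81.2 in IMZ383, against 883, 825 and 498 in IMZ305, log2 change -2.86 ± 0.34, adjusted p = 0.000292), and so did HXT2, a high-affinity transporter (508, 505 and 420.1 in IMZ383, against 3094, 3023 and 2803 in IMZ305, log2 change -2.64 ± 0.50, adjusted p = 0.00437). The fall of HXT5 was smaller than in CEN.PK113-7D (difference 2.65, adjusted p = 0.00977). HXT6, whose signal cannot be separated from that of HXT7, rose by 0.42, a call lost after quantile normalization. MTH1, a co-repressor of transporter genes, and the hexokinase gene HXK1 rose by 1.13 and 0.93. Of 18 genes of hexose transport and phosphorylation 5 rose and 3 fell, beside 8.93% and 21.2% of all genes. The last of the falls was HXT10, at background in IMZ383, whose call was lost without any 1 of 4 arrays. Of the rises, 3 were left without IMZ305 replicate 2 or 3, without IMZ383 replicate 2 or after quantile normalization.

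Stress genes fell in CEN.PK113-7D and changed less between the engineered strains. Of 19 heat shock and general stress genes 16 fell and none rose in CEN.PK113-7D, with a median of -1.75. Falls made up 32.5% of all genes there and 21.2% in the engineered pair. Between IMZ383 and IMZ305, 8 fell and 2 rose (1 without IMZ305 replicate 3), with a median of -0.29, and the difference was called for 11, always in the higher direction. HSP26, a small heat shock protein, gave 1074, 1164 and 893 in IMZ383, against 1211, 1171 and 1238 in IMZ305 and was not called (log2 change -0.22 ± 0.13, adjusted p = 0.277), whereas in CEN.PK113-7D it gave 158, 173 and 193 without oxygen, against 1982, 1805 and 2356 with air. HSP12, a membrane-protecting small heat shock protein, gave 3266, 3516 and 3163 in IMZ383, against 2955, 2909 and 2897 in IMZ305, and in CEN.PK113-7D 1145, 1595 and 1728 without oxygen, against 4635, 4368 and 3728 with air. For both genes the anaerobic CEN.PK113-7D cultures were the lowest of the 4 groups and the aerobic ones the highest, with IMZ383 and IMZ305 between them. YGP1, a secreted glycoprotein of stressed cells, gave 1077, 1169 and 1069 in IMZ383, against 934, 859 and 806 in IMZ305, and in CEN.PK113-7D 136, 275 and 269.7 without oxygen, against 1129.6, 869 and 1089 with air. The differences were 3.33 for HSP26 (adjusted p = 1.55e-05), 1.71 for HSP12 (0.00186) and 2.59 for YGP1 (0.0024). HSP30, a plasma membrane heat shock protein, and DDR2, a stress protein induced by DNA damage, had differences of 2.15 and 2.29. SPI1, a wall protein induced by weak acids, rose in the engineered pair and fell in CEN.PK113-7D (1.00 and -0.64). SPG4 and SPG1, linked to stationary phase survival, fell in both (-2.98 and -2.50, against -5.67 and -6.26), and SIP18 fell by -0.84, a call lost after median centring and after quantile normalization. The number of falls was 5 without IMZ305 replicate 1, 4 after median centring and 5 after quantile normalization.

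Of 17 trehalose and glycogen genes, 6 rose and 3 fell, against 2 and 9 in CEN.PK113-7D, with medians of 0.29 and -0.63. The shares over all genes were 8.93% and 21.2% in the engineered pair, and 10.1% and 32.5% in CEN.PK113-7D. The difference was called for 6 of the 17, always in the higher direction, beside 8.10% of all genes. GSY2, the main glycogen synthase, gave 279, 284 and 283 in IMZ383, against 95.5, 106 and 109.5 in IMZ305 (log2 change 1.45 ± 0.17, adjusted p = 0.000271), and fell in CEN.PK113-7D (180.0, 168 and 202 without oxygen, against 444, 264 and 330.3 with air, -0.89), with a difference of 2.33 (adjusted p = 0.000679). GPH1, glycogen phosphorylase, gave 400.0, 379 and 400.4 in IMZ383, against 76.4, 80.3 and 75.7 in IMZ305 (log2 change 2.34 ± 0.15, adjusted p = 6.51e-06), against 0.38 without a call in CEN.PK113-7D (difference 1.96, 0.000874). All 3 IMZ383 cultures were above all 3 IMZ305 cultures for both. ATH1, acid trehalase, fell in both comparisons (-1.40 and -2.62).

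**Figure D4:**
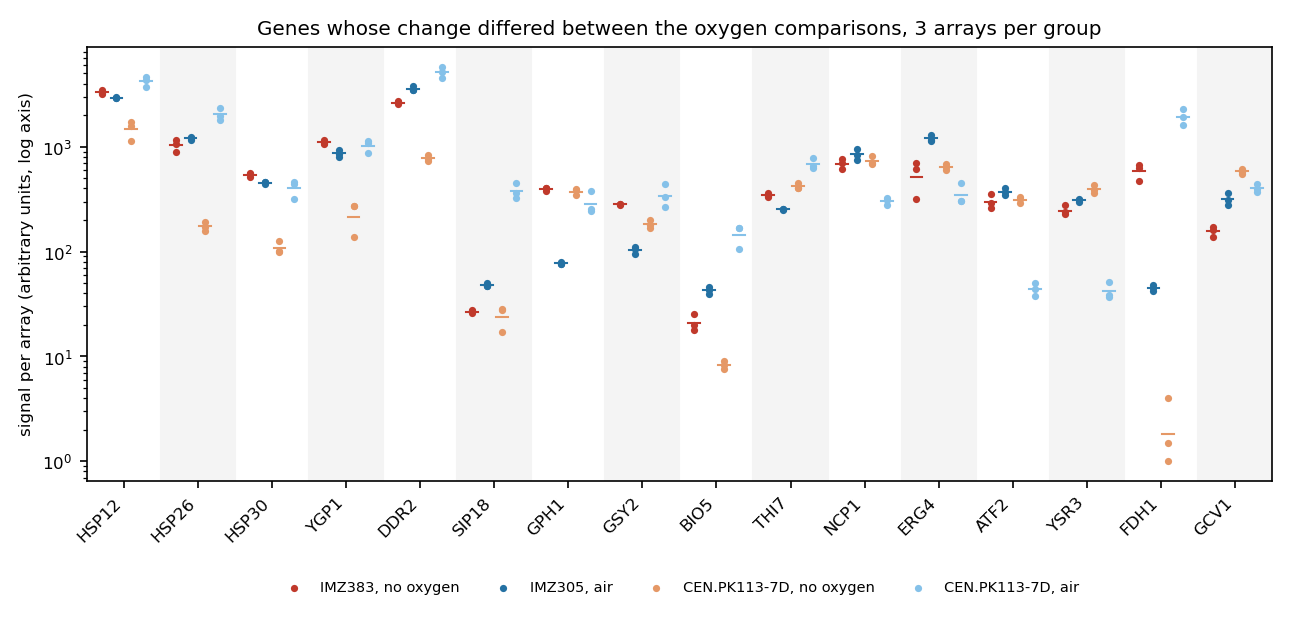
Signal of 16 genes whose change between IMZ383 and IMZ305 differed from that in CEN.PK113-7D, on each array (log axis, arbitrary units of scaled intensity), with IMZ383 without oxygen, IMZ305 with air and CEN.PK113-7D without and with oxygen; points are cultures and the short line is the geometric mean of 3. HSP26 and YGP1 have similar signals in IMZ383 and IMZ305 but are lower without than with oxygen in CEN.PK113-7D.

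Formate dehydrogenase had the largest called difference of any named gene. FDH1, which oxidises formate, shares nearly all its sequence with FDH2, and the array does not tell them apart. Its representative probe set gave 468, 626 and 676 in IMZ383, against 47.8, 44.9 and 42.1 in IMZ305 (log2 change 3.70 ± 0.40, adjusted p = 0.000192). In CEN.PK113-7D it gave 1.0, 1.5 and 4.0 without oxygen, against 2303, 1611 and 1924 with air. The gene was thus abundant in aerobic CEN.PK113-7D, at background in anaerobic CEN.PK113-7D, low in IMZ305 and abundant in IMZ383, with a difference of 13.70 (adjusted p = 1.46e-06). A further probe set gave 250.3, 330 and 381 in IMZ383, against 17.9, 13.6 and 13.9 in IMZ305, with a difference of 14.29, and the remaining one gave at most 5.5 on any array. GCV1, GCV2 and GCV3, subunits of the glycine cleavage system that supplies one-carbon units, fell (137, 171 and 161 in IMZ383, against 312, 281 and 359.6 in IMZ305, log2 change -1.02 ± 0.12, adjusted p = 0.000322 for GCV1; -1.73 and -0.93), whereas GCV1 rose in CEN.PK113-7D (0.54); all 3 differences were called (-1.56, -1.96 and -1.24).

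In total 83 probe sets were called in opposite directions. Beside FDH1, the deleted ALD genes and the PAU genes, the largest by the smaller of both changes were DET1, which takes part in sterol transport between membranes (395, 423 and 367 in IMZ383, against 114, 128 and 138 in IMZ305, log2 change 1.64 ± 0.16, adjusted p = 9.24e-05, -1.25 in CEN.PK113-7D), NCR1, a vacuolar sterol transport protein (48, 72.2 and 48.2 in IMZ383, against 24.9, 22.4 and 21 in IMZ305, log2 change 1.28 ± 0.20, adjusted p = 0.00145, -1.32 in CEN.PK113-7D), and GAD1, glutamate decarboxylase (44.2, 56 and 46.5 in IMZ383, against 24.2, 24.2 and 30.1 in IMZ305, log2 change 0.90 ± 0.22, adjusted p = 0.0135, -0.99 in CEN.PK113-7D). NCR1 has 5 probe sets, and its values here come from 1 that is not the one with the highest mean. That probe set was picked for its opposite changes and the others are not given, so no direction is stated for NCR1 as a gene. DET1, GAD1 and that probe set of NCR1 rose in IMZ383 over IMZ305 without overlap and fell without oxygen in CEN.PK113-7D. CCP1, cytochrome c peroxidase, and URA1, dihydroorotate dehydrogenase, which needs no oxygen in this yeast, did the same (1.30 and 1.01, against -0.65 and -0.43).

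Among nutrient genes, iron and copper uptake fell in both comparisons, in 11 of 24 and 13 of 24 genes, beside 21.2% and 32.5% of all genes. FET3, the multicopper ferroxidase of high-affinity iron uptake, which needs oxygen, gave 72.4, 42 and 82.2 in IMZ383, against 492, 416 and 372 in IMZ305 (log2 change -2.75 ± 0.42, adjusted p = 0.00127), and CTR3, a copper transporter, gave 50.6, 36.8 and 66.4 in IMZ383, against 216, 239 and 258 in IMZ305 (log2 change -2.25 ± 0.23, adjusted p = 0.000139). FET4, the low-affinity iron transporter, was the 1 gene of this list that rose (168, 165 and 200.5 in IMZ383, against 5.3, 9.1 and 10.3 in IMZ305, log2 change 4.49 ± 0.33, adjusted p = 1.79e-05, with 1 IMZ305 array at background), as in CEN.PK113-7D (3.89). Thiamine genes rose in 4 of 10 cases (THI3, THI6, THI7 and PHO3), against 0 higher and 5 lower in CEN.PK113-7D, and 2 without IMZ305 replicate 3 or IMZ383 replicate 1. Over all genes 8.93% rose in the engineered pair, and 10.1% rose and 32.5% fell in CEN.PK113-7D. THI7, the thiamine transporter, gave 363, 334 and 338 in IMZ383, against 254, 257 and 250.5 in IMZ305 (log2 change 0.44 ± 0.10, adjusted p = 0.00983; difference 1.15, adjusted p = 0.00163). BIO5, a transporter of biotin precursors, fell (20.1, 17.8 and 25.3 in IMZ383, against 39, 45.8 and 43.3 in IMZ305, log2 change -1.03 ± 0.20, adjusted p = 0.00461), by less than in CEN.PK113-7D (-4.13, difference 3.10, 0.000397). In the branched-chain amino acid list 5 of 12 rose, including LEU1 and LEU2 (1.79 and 2.41), LEU2 being the deletion marker of both strains, and BAT2, the cytosolic transaminase, fell (254, 165 and 204 in IMZ383, against 399, 426 and 347 in IMZ305, log2 change -0.93 ± 0.18, adjusted p = 0.00519), opposite to CEN.PK113-7D (0.72).

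Some permease rises of CEN.PK113-7D recurred at a smaller size. DIP5, the dicarboxylic amino acid permease, gave 865, 566 and 837 in IMZ383, against 159, 187 and 185 in IMZ305 (log2 change 2.07 ± 0.24, adjusted p = 0.000299, 4.62 in CEN.PK113-7D, difference -2.55, 0.00268), and BAP3, a branched-chain amino acid permease, gave 78.9, 108 and 63.5 in IMZ383, against 16, 13.2 and 19.2 in IMZ305 (log2 change 2.35 ± 0.38, adjusted p = 0.00191, 5.71 in CEN.PK113-7D, difference -3.36, 0.00625). The difference of BAP3 was not called with the floor at the highest non-target control (adjusted p = 0.0838). AGP1, a broad-range permease, was not called (0.49) and rose in CEN.PK113-7D (2.85, difference -2.37, 0.00202). PUT4, the proline permease, fell in both (16.3, 11.4 and 23.9 in IMZ383, against 378, 288 and 224 in IMZ305, log2 change -4.14 ± 0.31, adjusted p = 2.03e-05). MUP1, the methionine permease, fell (33.5, 45.8 and 70.6 in IMZ383, against 399.7, 336 and 405 in IMZ305, log2 change -2.99 ± 0.26, adjusted p = 5.56e-05) and more so than in CEN.PK113-7D (difference -2.24, 0.00761). PHO89, the sodium-coupled phosphate transporter, gave 24.3, 22.4 and 29.6 in IMZ383, against 407, 402 and 364 in IMZ305 (log2 change -3.95 ± 0.12, adjusted p = 5.62e-08), also more than in CEN.PK113-7D (difference -1.92, 0.000308). ARO9 and ARO10, the aromatic transaminase and decarboxylase of fusel alcohol formation, fell (15.4, 8.5 and 12.6 in IMZ383, against 522, 443 and 461 in IMZ305 and log2 change -5.33 ± 0.26, adjusted p = 1.49e-06 for ARO9; -4.46 for ARO10), close to CEN.PK113-7D (-4.87 and -4.17).

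Genes of peroxide and superoxide defence fell in 8 of 20 cases and rose in 3, against 9 and 3 in CEN.PK113-7D. Over all genes 21.2% fell and 8.93% rose in the engineered pair, against 32.5% and 10.1% in CEN.PK113-7D. SOD2, the mitochondrial superoxide dismutase, gave 250.4, 284 and 229 in IMZ383, against 626, 511 and 482 in IMZ305 (log2 change -1.08 ± 0.14, adjusted p = 0.000553), and GRX2, a glutaredoxin, gave 268, 276 and 307 in IMZ383, against 658, 608 and 664 in IMZ305 (log2 change -1.18 ± 0.10, adjusted p = 4.69e-05). Neither gene's groups overlapped, and SOD2 fell by less than in CEN.PK113-7D (-2.35 there, difference 1.27, adjusted p = 0.0054). DOT5, a nuclear thiol peroxidase, fell in the engineered pair (log2 change -1.46 ± 0.21, adjusted p = 0.00103) and was not called in CEN.PK113-7D (0.16, difference -1.62, adjusted p = 0.0113). In the pentose phosphate and NADPH list 7 of 14 fell, beside 21.2% of all genes. Those 7 included POS5, the mitochondrial NADH kinase (-1.01), and SOL3, a phosphogluconolactonase (-1.38). That count was 4 without any 1 of the IMZ305 arrays, 3 without IMZ383 replicate 1 or 3 or after median centring, and 4 after quantile normalization.

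Purine genes, of which 9 of 13 rose and 1 fell in CEN.PK113-7D, gave 4 higher and 2 lower in the engineered pair. Of all genes, 8.93% were higher and 21.2% lower there. IMD2, an IMP dehydrogenase with near-identical relatives, gave 1142, 1123 and 1026 in IMZ383, against 492, 455 and 436 in IMZ305 (log2 change 1.25 ± 0.11, adjusted p = 5.1e-05), and ADE16, which adds a formyl group in purine synthesis, gave 427, 430.5 and 407 in IMZ383, against 299, 320.1 and 325 in IMZ305 (log2 change 0.42 ± 0.07, adjusted p = 0.00283), opposite to CEN.PK113-7D (-0.55, difference 0.98, adjusted p = 0.000874). The IMZ383 cultures were above the IMZ305 cultures for both genes. The falls numbered 1 without any 1 of the IMZ305 arrays or IMZ383 replicate 2 and 0 after median centring. Of 13 genes of esters and fusel alcohols, EEB1, which forms ethyl esters of fatty acids, gave 96.3, 109.7 and 66.9 in IMZ383, against 23, 34.2 and 47 in IMZ305 (log2 change 1.42 ± 0.29, adjusted p = 0.0064), a smaller rise than in CEN.PK113-7D (3.35, difference -1.93, adjusted p = 0.0209), though that difference was not called without IMZ305 replicate 2 or the third anaerobic CEN.PK113-7D array (up to 0.0551). Mating genes rose in 6 of 16 cases, against 5 in CEN.PK113-7D, and 3 genes of the list were called in the same direction in both. MFA2, a gene of the a-factor pheromone, gave 2162, 2679.6 and 4028 in IMZ383, against 927, 919 and 755 in IMZ305 (log2 change 1.73 ± 0.22, adjusted p = 0.000505). The largest rise of the list was that of MF(ALPHA)1, a gene of the α-factor made by MATα cells, at a low signal (17.2, 21.8 and 20.2 in IMZ383, against 6.7, 1.4 and 8.0 in IMZ305, log2 change 2.22 ± 0.57, adjusted p = 0.0186), with 1 IMZ305 array at background. Its call was lost without IMZ383 replicate 2 or with the 6 arrays fitted alone (adjusted p up to 0.0844).

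Cytosolic ribosomal protein genes, 20 of 81 of which rose in CEN.PK113-7D with none lower, gave 3 higher and 4 lower in the engineered pair. The shares over all genes were 10.1% higher and 32.5% lower in CEN.PK113-7D, and 8.93% and 21.2% in the engineered pair. Copies of a pair cannot always be separated. The list's direction turned with the scaling, with 11 higher and 1 lower after median centring, and single arrays moved it (6 higher without IMZ383 replicate 1; 2 lower without IMZ305 replicate 2 or 3 or IMZ383 replicate 1 or 2). Of 27 genes of histone acetylation and silencing 3 rose (HDA1, SAS3 and ADA2) and 2 fell (HAT1 and SIR3), beside 8.93% and 21.2% of all genes, with HDA1, a histone deacetylase, at 26.3, 24.2 and 28.2 in IMZ383, against 11.8, 13.5 and 15.9 in IMZ305 (log2 change 0.94 ± 0.17, adjusted p = 0.00341). Only 1 rose without IMZ305 replicate 1 or 2 or IMZ383 replicate 2.

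**Figure D5:**
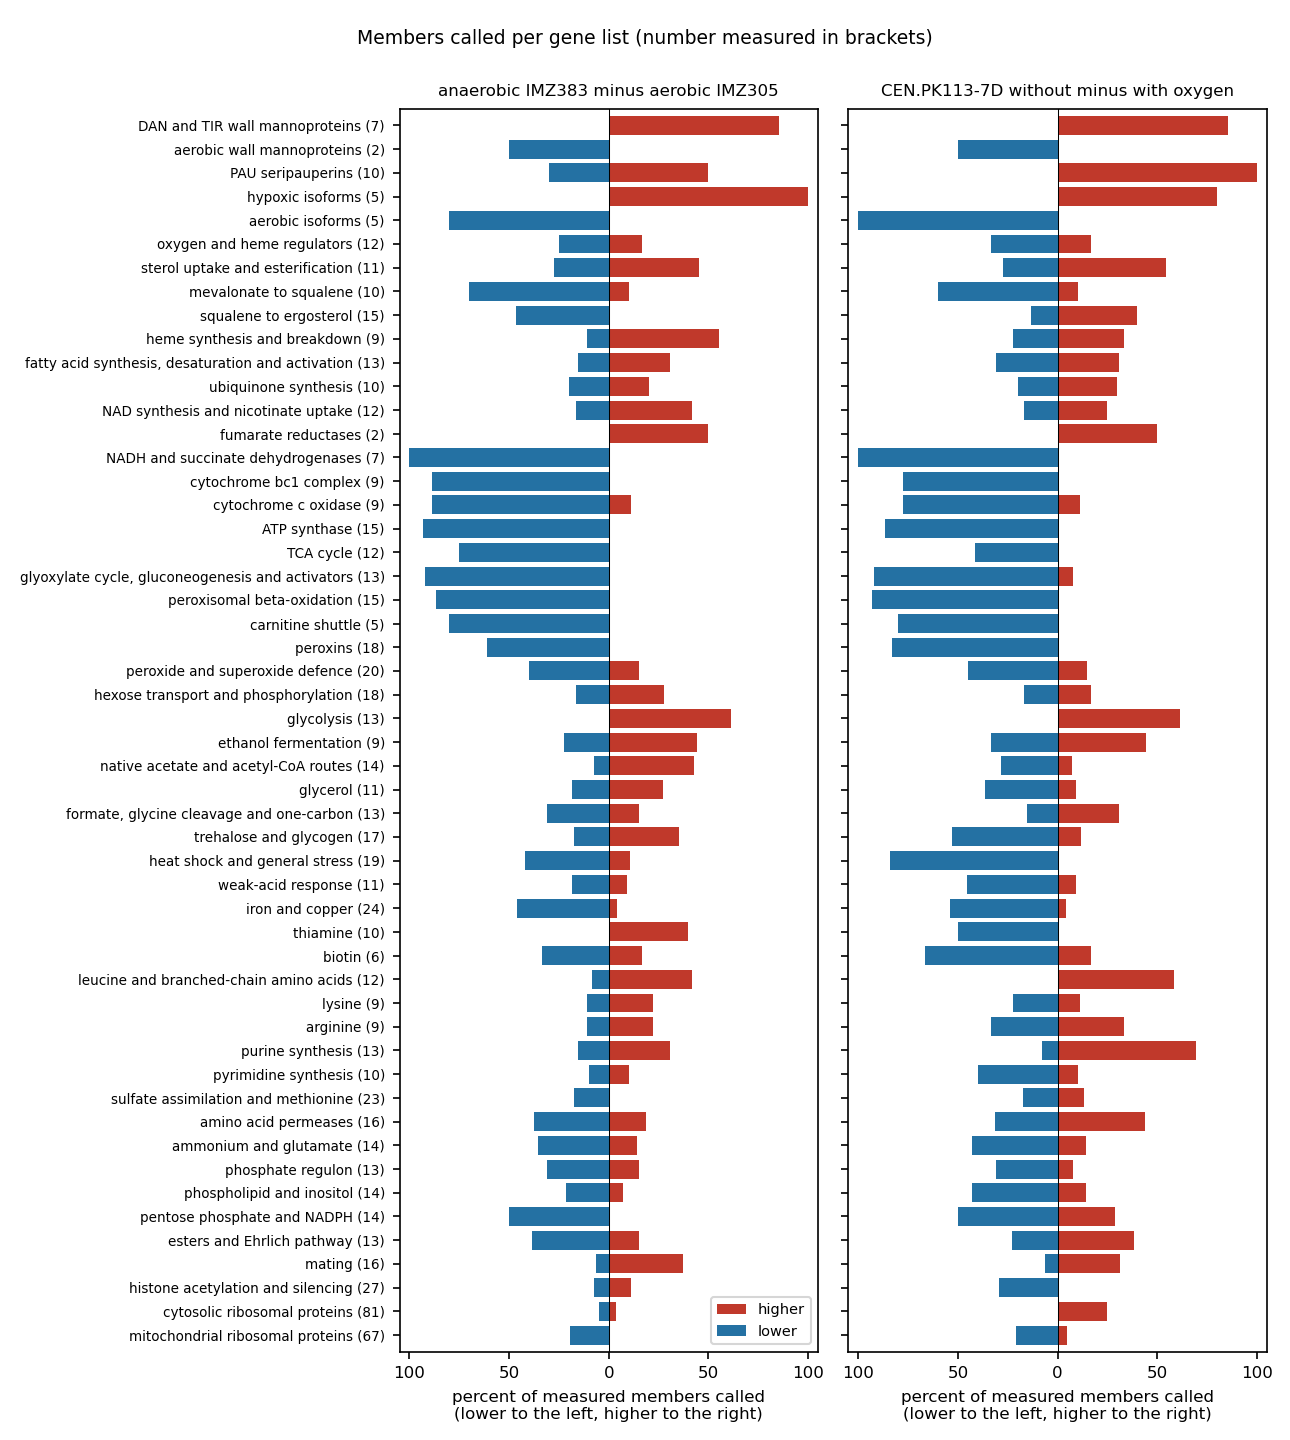
Percent of the measured genes of each list that were called higher or lower, for IMZ383 without oxygen over IMZ305 with air (left) and for CEN.PK113-7D without over with oxygen (right). Respiratory, glyoxylate and beta-oxidation lists are mostly lower in both panels, whereas the heat shock and general stress list is lower in 8 of 19 genes on the left and 16 of 19 on the right.

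Outside the lists, the largest rises that recurred were HMS1, a transcription factor of filamentous growth (53.9, 69.5 and 47.6 in IMZ383, against 0.3, 0.3 and 0.6 in IMZ305), YML083C, a gene of unknown function (40.3, 36 and 34.7 in IMZ383, against 0.3, 0.3 and 0.2 in IMZ305), and FLO11, the adhesin of filaments and biofilms (1433, 1541 and 1321 in IMZ383, against 67.5, 60.7 and 42 in IMZ305, log2 change 4.68 ± 0.25, adjusted p = 2.28e-06). HMS1 and YML083C lay at background on all IMZ305 arrays, so their rises were at least 12.4-fold and 8.11-fold. In CEN.PK113-7D HMS1 gave 79.3, 46.2 and 46.8 without oxygen, against 0.4, 0.3 and 0.3 with air, and YML083C gave 64, 38.4 and 43.2 without oxygen, against 0.3, 0.2 and 0.4 with air. HUG1, an inhibitor of ribonucleotide reductase, rose less than in CEN.PK113-7D (431, 319 and 496 in IMZ383, against 78.1, 68.9 and 82.4 in IMZ305, log2 change 2.42 ± 0.21, adjusted p = 4.69e-05, difference -3.0, 0.000578). The largest change of any probe set was that of one for which the annotation gives no gene. It gave at most 0.4 on all IMZ383 and CEN.PK113-7D arrays, against 3795, 3451 and 3765 in IMZ305. It was at least 811-fold lower in IMZ383. IMZ305 carries marker cassettes that IMZ383 and CEN.PK113-7D lack, and whether the probe set detects one of them was not tested. Among falls of named genes, YDR034C-A, a short gene of unknown function, gave 4.5, 4.9 and 3.2 in IMZ383, against 413, 488 and 428 in IMZ305 (log2 change -6.74 ± 0.76, adjusted p = 0.000232), with 2 IMZ383 arrays at background, and YAR068W gave 33.2, 21.1 and 34 in IMZ383, against 867, 779.8 and 651 in IMZ305 (log2 change -4.72 ± 0.19, adjusted p = 4.87e-07). YDR034C-A has 7 probe sets, and only the one with the highest mean is given. The aerobic CEN.PK113-7D arrays disagreed on it (63.7, 63.4 and 6.3). Its difference of -5.11 was not called without IMZ305 replicate 2 or the third anaerobic CEN.PK113-7D array (adjusted p up to 0.0529). SUE1, which takes part in the breakdown of cytochrome c, fell by less than in CEN.PK113-7D (10.9, 16.2 and 16.8 in IMZ383, against 220.2, 254 and 307 in IMZ305, log2 change -4.17 ± 0.22, adjusted p = 2.12e-06, difference 2.99, 0.000805).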

How the data were processed

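Expression was measured on 12 Affymetrix yeast arrays of 3' IVT-labelled RNA, per the labels' protocols. The authors deposited 1 table of signal intensity on a linear scale, already scaled to a common level, with 9335 probe sets; how they were summarised is not given in the sources used here. Of these, 60 control probe sets were left out and 9275 tested. The supplied annotation gives 1 gene for 6504 of these, several for 328 and none for 2443. The planned search of promoters was not run.

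Intensities under 1.1 (the 10th percentile of all values) were raised to 1.1 and log2 was taken. The 4 groups were fitted together in limma 3.58.1 (R 4.3.3) with empirical Bayes variances, and p-values were adjusted by Benjamini-Hochberg over all probe sets. Adjusted p under 0.05 was called. The comparisons were IMZ383 without oxygen minus IMZ305 with air, anaerobic minus aerobic CEN.PK113-7D, and the difference of the 2. Changes are log2 values with the standard error of the fit, n = 3 cultures per group, and 3 arrays per group limit the precision. The log2 change of a gene near the floor is understated, so where a whole group lay under its arrays' highest non-target control a bound ("at least") was computed in its place. For lists, each gene was represented by its probe set with the highest mean. The fit was tested on simulated data. Same-numbered cultures did not deviate together (correlations of 0.011, -0.048 and 0.01), so the numbers were not used as pairs.

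The members and the gene lists were chosen with earlier results of these data known. Genes were named by rule: deleted genes and markers; per comparison the 10 largest rises and 10 largest falls among called probe sets with 1 gene, no overlap and a mean above the 25th percentile (6.9); up to 5 called genes of each list and all of lists of at most 10; the 10 largest called in opposite directions; and the 10 largest called differences each way. Genes named outside it, after their values were seen, were ADR1, AGP1, ARE2, ATP4, CAT8, CIT1, CIT2, DDR2, GPD1, GPD2, HSP12, HSP26, HSP30, HXT7, HXT10, LPD1, MDH1, MDH2, NCP1, PAU17, PCK1, PDR11, ROX1, SIP4, STE3, SUT2, YGP1 and 1 probe set without a gene, as were most differences between the comparisons given for list genes. Alternatives covered normalization, floor, filter, probe set choice, variance model, array weights, thresholds, the replicate number and each array left out.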

Additional observations from a re-analysis of the deposited data

Results flagged for a closer look

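The change between IMZ383 without oxygen and IMZ305 with air differed from the change between anaerobic and aerobic CEN.PK113-7D, by a test of that difference across all probe sets (limma, adjusted p under 0.05), for 549 probe sets in the higher direction and 274 in the lower. Those described by their difference, the largest in each direction and those given above, follow, each with the difference of its log2 changes. A positive value means a larger rise or a smaller fall in the engineered pair. Values of genes with a whole group at background depend on the floor and are no bounds.

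Deleted loci stand first. The difference was 9.88 for ALD4, 8.36 for ALD5, 8.34 for ALD6, 5.21 for ALD3 and 4.86 for ALD2, all at background in IMZ305. ACS1, deleted in both engineered strains, had 4.12, since it fell in CEN.PK113-7D alone (125, 104 and 94.3 without oxygen, against 2738, 952 and 2452 with air). FDH1 had 14.29 at the probe set with the largest difference.

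Higher differences among the other genes were largest for CRF1, a corepressor of ribosomal protein genes (5.03), which gave 9.6, 11.6 and 9.2 in IMZ383, against 15.9, 17.5 and 20.5 in IMZ305, and in CEN.PK113-7D 7.7, 1.6 and 3.9 without oxygen, against 227, 183 and 223 with air. SUF16, a glycine tRNA gene, had 4.18, which was not called without IMZ305 replicate 1 or 2, IMZ383 replicate 2 or the first aerobic CEN.PK113-7D array (adjusted p up to 0.061). NCA3, linked to the expression of mitochondrial ATP synthase subunits, had 3.87, with 283, 170.4 and 356 in IMZ383, against 158, 144 and 142 in IMZ305. The sterol transport gene DET1 had 2.89, the probe set of NCR1 given above had 2.59, and GAD1 had 1.89.

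Lower differences were largest for YDR034C-A (-5.11 at the probe set given above) and OPT2, an oligopeptide transporter (-4.33). OPT2 was low on all engineered arrays and above background only in IMZ383 replicate 2, at 2.8, 4.3 and 3.8 in IMZ383, against 0.4, 0.8 and 0.4 in IMZ305, and in CEN.PK113-7D it gave 127, 42.6 and 95.6 without oxygen, against 1.3, 0.4 and 1.3 with air. YSR3, a dihydrosphingosine-1-phosphate phosphatase (-3.57), gave 227, 237 and 276 in IMZ383, against 316, 299 and 313 in IMZ305, and in CEN.PK113-7D 435, 384 and 363 without oxygen, against 51.5, 38.2 and 37.1 with air. AQR1, a drug and amino acid exporter (-3.19), gave 14, 14.9 and 16.1 in IMZ383, against 6.1, 9.8 and 4.9 in IMZ305, and in CEN.PK113-7D 102, 76.5 and 80.5 without oxygen, against 3.9, 4.2 and 4.4 with air. DAN1 had -3.32 and ATF2 -3.15. The differences of YDR042C (-3.64), BAP3 (-3.36) and YEL073C (-3.09) were not called with the floor at the highest non-target control (adjusted p = 0.0781, 0.0838 and 0.0936). That of CDA2, a chitin deacetylase of sporulation (-3.40), was lost under 3 other settings and without any 1 of 8 arrays (adjusted p up to 0.0907). The PAU genes PAU15, PAU16 and PAU19 had -2.38, -2.72 and -2.34, and the mannoprotein genes TIR1 and TIR3 had -1.70 and -2.34.

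Stress and reserve genes had higher differences: HSP26 3.33, YGP1 2.59, GSY2 2.33, DDR2 2.29, HSP30 2.15, GPH1 1.96, HSP12 1.71 and SOD2 1.27. Genes of carbon use and respiration did so too: DAK2 3.35, SUE1 2.99, HXT5 2.65, CTA1 2.35, NDE2 1.92, SIP4 1.71, ADR1 1.53, SFC1 1.43, FBP1 1.29, MDH2 0.88 and IDP2 0.83. CYC1 had -1.2. The difference of IDP2 was lost after median centring and after quantile normalization, and that of MDH2 also with a replicate block. In lipid and sterol metabolism MGA2 had 1.94, ELO1 1.64, FAA4 1.53, HMG1 1.00 and IDI1 0.81, whereas ERG4 had -2.10, NCP1 -1.55, ERG9 -1.04 and MVD1 -0.69, which was not called without a floor (adjusted p = 0.0512). The ester gene EEB1 had -1.93 and the peroxidase gene DOT5 -1.62. HUG1, the inhibitor of ribonucleotide reductase, had -3.0. Among genes of nutrient uptake, purine synthesis and glycine cleavage BIO5 had 3.10, THI7 1.15 and ADE16 0.98, whereas DIP5 had -2.55, AGP1 -2.37, MUP1 -2.24, GCV2 -1.96, PHO89 -1.92, GCV1 -1.56 and GCV3 -1.24.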

How the results depend on the processing

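The counts moved with strictness and weighting more than with the treatment of low signal. At an adjusted p under 0.005, 424 probe sets were higher and 632 lower in IMZ383 than in IMZ305, and 130 and 55 differences were called; asking for at least 2-fold as well left 586 and 720. Array quality weights gave 1432 higher and 2231 lower, with differences of 936 and 513. Testing 1 probe set per gene, which tests fewer features, gave 545 higher. Median centring gave 879 lower and 322 higher differences; its cause, like that of the array weights, was not tested. Leaving out single arrays gave 699 to 985 higher, 1051 to 1565 lower, 322 to 636 higher differences and 157 to 361 lower ones. The differences fell most without IMZ305 replicate 1 (348 and 167), IMZ305 replicate 2 (322 and 157) or the third anaerobic CEN.PK113-7D array (343 and 174). The share of the CEN.PK113-7D response called again stayed between 37.2% and 57.5% for rises and between 35.3% and 56.1% for falls over the alternatives run.

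With the replicate number as a block (replicate block), 873 were higher and 1375 lower, with 412 and 222 differences, each within 1.5 times of the counts without it; calls it ended include those of ERG10, ADA2, PAU17, HXT10 and ARE2. Of 336 genes followed over the alternatives 276 were called, 224 of them under every alternative, and no called gene turned its direction. Some genes without a call changed sign, such as CDA2, with log2 changes from -0.79 to 0.47. Of 70 named differences 56 were called under every alternative. Of 104 list counts, 60 stayed within 1.5 times throughout. The planned promoter search was not run for want of sequences. Signal at background, which limits ALD, ACS and other low genes, gives bounds only, and 3 cultures per group of 1 strain each set no spread between strains.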
